A study of Mus musculus with 6 samples.

Results

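Kainate receptors, delta receptors and the Neto proteins form a branch of the glutamate receptor system, and 8 of its genes were followed here in mouse pre-limbic cortex (PLc), which belongs to the medial prefrontal cortex. The genes were Grik1, Grik2, Grik3, Grik4 and Grik5, which encode the kainate receptor subunits, Grid1, which encodes a delta receptor, and Neto1 and Neto2, which encode auxiliary subunits. They were taken from the table of normalized counts by their gene symbols. All 8 symbols were found among the 37620 genes listed, and all 8 passed the filter on low values described below. C57Bl/6 mice aged 9 weeks were injected i.p. once a day for 5 days with saline or with ketamine at 30 mg/kg, and the PLc was dissected 2 days later. Each RNA sequencing library carries a number of its own in the labels, taken here as that of 1 mouse. The control group comprised saline mice 1, 6 and 10 and the treated group ketamine mice 3, 5 and 9 (n = 3 each). The comparison asks whether repeated ketamine changed gene expression in this cortical region.

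Kainate receptors are tetrameric ion channels opened by glutamate. Subunits GluK1, GluK2 and GluK3, from Grik1 to Grik3, can form channels on their own. Subunits GluK4 and GluK5, from Grik4 and Grik5, bind kainate with higher affinity and need a partner of the first kind to form a working channel. In the cortex these receptors act on both sides of the synapse and shape excitability and transmitter release, and Grik1 is known for its expression in interneurons. Neto1 and Neto2 are single-pass membrane proteins that bind kainate receptors and slow their closing. The delta receptor GluD1 is related in sequence but is known mainly as a synaptic organiser that binds cerebellins, which in turn bind neurexins across the synapse. Ketamine blocks a different class of glutamate receptor, the NMDA receptor.

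The coding sequences of these genes were compared because reads from closely related genes can be assigned to the wrong one. The 60 bases in which the 5 kainate receptor genes differ least encode part of the third membrane segment of the channel. They are given here from GENCODE M1 transcripts on the mm9 genome, 5′ to 3′ along the coding strand, with capitals at the bases that differ from Grik2.
Grik1: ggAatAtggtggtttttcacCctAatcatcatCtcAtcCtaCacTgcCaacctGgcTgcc
Grik2: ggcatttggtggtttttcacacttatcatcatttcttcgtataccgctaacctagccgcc
Grik3: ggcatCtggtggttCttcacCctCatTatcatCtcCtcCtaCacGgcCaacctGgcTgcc
Grik4: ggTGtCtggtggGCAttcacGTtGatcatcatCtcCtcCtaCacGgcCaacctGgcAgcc
Grik5: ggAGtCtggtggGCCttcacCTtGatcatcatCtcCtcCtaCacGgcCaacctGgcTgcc
Grid1: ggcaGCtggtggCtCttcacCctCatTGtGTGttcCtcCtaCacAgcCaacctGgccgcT

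Even here Grik1 and Grik3 differed from Grik2 at 12 and 13 of the 60 bases, Grik4 and Grik5 at 17 each, and Grid1 at 18. The 5 kainate genes shared 42 of the 60. The stretch lies in exon 12 of Grik1 (chr16:87936257-87936316, minus strand), exon 14 of Grik2 (chr10:48960499-48960558, minus strand), exon 13 of Grik3 (chr4:125371250-125371309, plus strand) and exon 12 of Grid1 (chr14:36265491-36265550, plus strand). In Grik4 it spans exons 16 and 17 (from 42351955 to 42355657 on the minus strand of chromosome 9) and in Grik5 exons 15 and 16 (from 25800941 to 25807467 on the minus strand of chromosome 7). Over whole coding sequences, identity was 72.1% between Grik1 and Grik2, 70.5% between Grik1 and Grik3, 72.0% between Grik2 and Grik3 and 70.1% between Grik4 and Grik5. It lay between 52.0% and 56.4% between the 2 groups of subunits, and between 44.2% and 47.0% between Grid1 and a kainate gene. The longest identical run in the alignment was 38 bases, between Grik3 and Grik5. No run of 100 bases in an annotated coding transcript of the 8 genes was found in the same orientation in a transcript of another protein-coding gene. In GENCODE M1 no exon base of the 8 genes was shared with another gene, and the genes that overlapped their introns had at most 8.8 normalized counts on average.

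Each gene lies on a chromosome of its own, and most are long. Grik1 (ENSMUSG00000022935) extends over 394 kb, Grik2 (ENSMUSG00000056073) over 689 kb, Grik3 (ENSMUSG00000001985) over 223 kb and Grik4 (ENSMUSG00000032017) over 426 kb. Grid1 (ENSMUSG00000041078) covers 764 kb, from 35633011 to 36396565 on chromosome 14. Grik5 (ENSMUSG00000003378) is short at 62.5 kb. Neto1 (ENSMUSG00000050321) lies on chromosome 18 from 86564344 to 86671289 and Neto2 (ENSMUSG00000036902) on chromosome 8 from 88161136 to 88224653.

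The values are normalized counts, that is, the reads of a gene over the size factor of its library. The libraries held between 26273436 and 32643726 reads, and a member gene had between 233 and 8745 reads in a library. Markers of cortical excitatory neurons such as Slc17a7 and Camk2a were abundant in all 6 libraries, between 22152 and 49417 and between 59692 and 121654 normalized counts. Markers of neighbouring regions were uneven, however. The summed counts of 20 striatal markers were between 19024 and 20845 in saline mice, whereas ketamine mouse 3 had 104359, ketamine mouse 5 had 55864 and ketamine mouse 9 had 17350. Of these markers, Isl1 and Six3 were at 0 in some libraries. The sum of 10 olfactory bulb markers was 12132 in ketamine mouse 9 and between 1551 and 2596 in the other ketamine mice. It was 2679 in saline mouse 10, and 251 and 313 in saline mice 1 and 6. In saline mouse 10 most of it came from Slc6a3 (1821) and Th (611). Eomes and Cdhr1 had 7.69 and 90.05 there, against 5.75 and 103 in saline mouse 1 and 156 and 900 in ketamine mouse 3. Saline mouse 10 also had 372855 counts over 10 oligodendrocyte lineage markers, against 58428 and 46546 in saline mice 1 and 6 and between 107110 and 162196 in ketamine mice. The fold changes of the 8 genes were also computed without these libraries and the ratios between them without single mice, whereas shares, levels per kilobase and correlations are given with all 6.

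**Figure D1:**
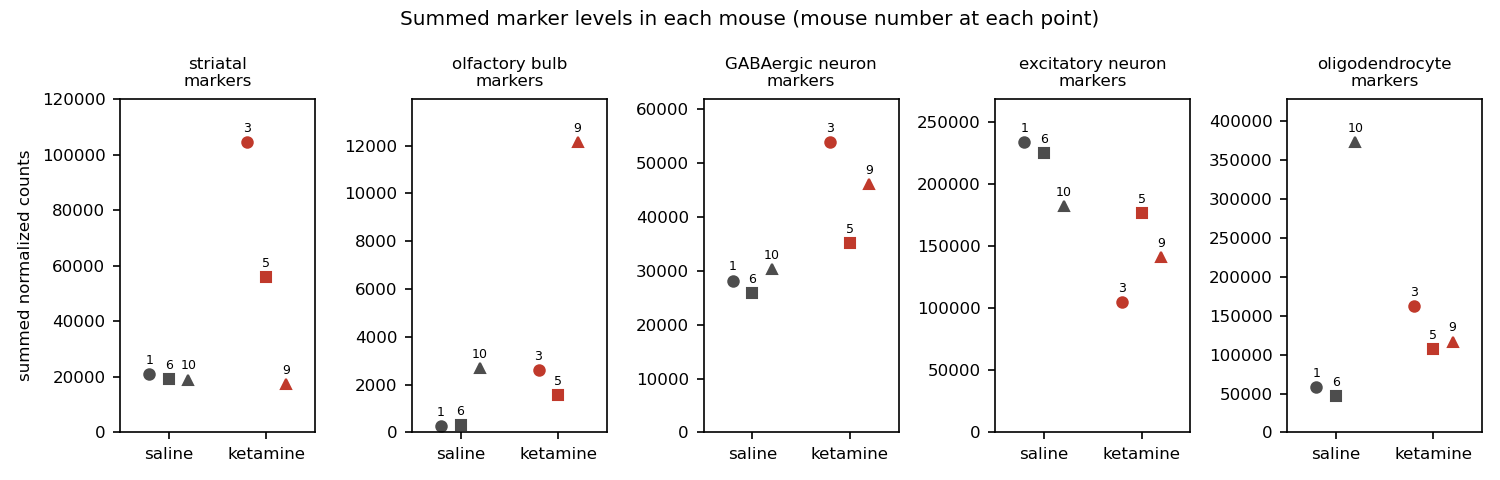
Summed normalized counts (vertical axis) of 5 marker lists in each saline mouse (grey) and each ketamine mouse (red), with the mouse number at each point. Striatal markers stand out in ketamine mice 3 and 5, at 104359 and 55864, olfactory bulb markers in ketamine mouse 9, at 12132, and oligodendrocyte lineage markers in saline mouse 10, at 372855.

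Ketamine and saline mice were tested against each other by limma, on values of log2(normalized count + 1), over the 16127 genes that averaged 10 or more normalized counts. Of the 8 genes, 0 passed an adjusted p of 0.05, as did 0 of all genes tested (0%). The same count by edgeR on the recovered reads was 0 of 8, with 0% of all genes called, and by DESeq2 0 of 8, with 1.13% of all genes called. At an unadjusted p under 0.05, 1 of the 8 passed with limma, against 5.81% of all genes. DESeq2 and edgeR each had 2 of the 8 at that level, Grik1 and Grik4, against 6.54% and 6.24% of all genes. The groups did not overlap for 2 of the 8, Grik4 and Grik1, against 10.3% of all genes. The changes of the 8 genes ran from -0.80 to 0.48 on the log2 scale, with 5 higher and 3 lower in ketamine and a median of 0.07, beside -0.01 over all genes tested. With 3 mice against 3, an exact permutation test cannot give a p under 0.1, and a count of 0 does not show that the genes did not change.

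Grik4 had the lowest p of the 8 genes. Its normalized counts were 871, 925 and 1141 in saline mice 1, 6 and 10, compared to 655, 646 and 412 in ketamine mice 3, 5 and 9. Every ketamine mouse was thus below every saline mouse, a pattern found in 4.66% of all genes tested, and ketamine mouse 9 was the lowest. The group means were 979 ± 143 and 571 ± 138 normalized counts (SD, n = 3 each), so that the ketamine mean was 0.583 times that of saline. The log2 fold change was -0.80, with a standard error of 0.218 and a 95% interval from -1.31 to -0.29 (unadjusted p = 0.00768, adjusted p = 0.556 by limma; exact permutation test, two-sided, p = 0.1). By p, Grik4 stood at rank 223 of the 16127 genes. DESeq2 gave -0.77 (adjusted p = 0.117) and edgeR -0.76 (adjusted p = 0.557).

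The sign of Grik4 was the same with each mouse left out in turn, between -0.91 and -0.58. Without ketamine mice 3 and 5 together, in which striatal markers were high, it was -1.24. That leaves ketamine mouse 9 alone, which had the lowest Grik4 and the highest sum of olfactory bulb markers. Without saline mouse 10 and ketamine mouse 9 together the log2 fold change of Grik4 was -0.46 (adjusted p = 0.0625 by limma). The summed level of excitatory neuron markers was also lower in each ketamine mouse. Over 7 such genes the summed counts were 233470, 224777 and 182084 in saline mice 1, 6 and 10, compared to 104910, 176625 and 141066 in ketamine mice 3, 5 and 9. All 7 had a log2 fold change below 0 (median -0.77), of which limma called 0 and DESeq2 1. The mice stood in different orders, since Grik4 was lowest in ketamine mouse 9 and the marker sum in ketamine mouse 3. Of 7 markers of PV interneurons, Pvalb, Kcnc2 and Kcns3 also had all their ketamine values below all their saline values. Kcnc2, a potassium channel gene, had 3657, 3569 and 3594 normalized counts in saline mice 1, 6 and 10. Its 2649.8, 2589.9 and 2335 in ketamine mice 3, 5 and 9 had the order of Grik4, but its saline values did not. In the same ketamine mice Kcns3 had 137, 147 and 123, lowest in mouse 9 like Grik4. Pvalb had 535, 516 and 670 there, highest in mouse 9. In saline mice 1, 6 and 10 Kcns3 had 233, 208 and 339 and Pvalb 1105, 893 and 2261. Both were highest in saline mouse 10, as Grik4 was, with saline mice 1 and 6 in the reverse order. Tac1, which is also in the striatal list, was higher in every ketamine mouse, and the groups overlapped for the other 3. The sum over the 7 ranged from 11076 to 15822 in saline and from 7703 to 14798 in ketamine, and limma called 0 of them and DESeq2 3. The part of either list in the difference in Grik4 was not tested. In bulk tissue, fewer cells of a type and less RNA in each cell cannot be told apart.

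**Figure D2:**
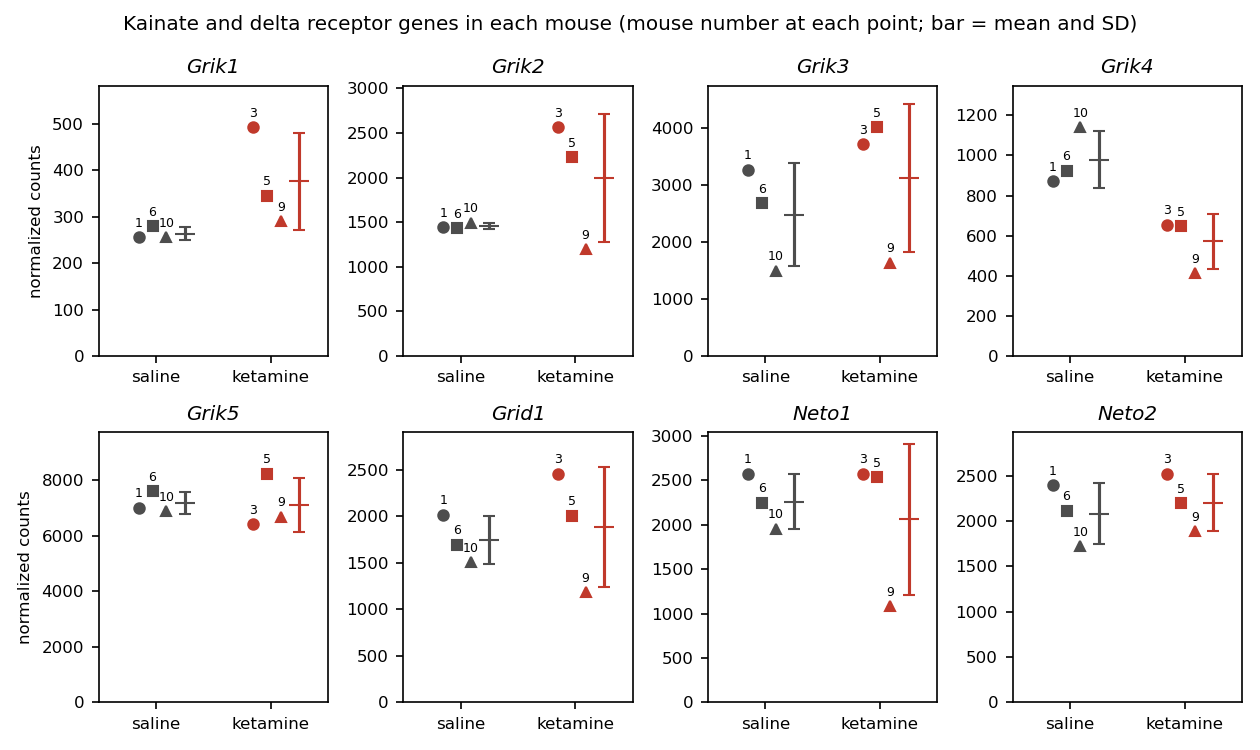
Normalized counts (vertical axis, from 0) of the 8 genes in each saline mouse (grey) and ketamine mouse (red), with the mouse number at each point and a bar for the mean and SD (n = 3). The groups are separate for Grik4, with 412 to 655 counts in ketamine against 871 to 1141 in saline, and for Grik1, with 290.1 to 493 against 256 to 279.9. For the other 6 genes they overlap.

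Grik5 encodes the other high-affinity subunit and is the gene most like Grik4 in coding sequence, but its values showed no such difference. It had 7009.95, 7604 and 6874 normalized counts in saline mice 1, 6 and 10, compared to 6415, 8227 and 6684 in ketamine mice 3, 5 and 9. The ketamine mice stood on both sides of the saline mice, and the largest of the 6 values was 1.28 times the smallest, the narrowest range of the 8 genes. The means were 7163 ± 388 and 7109 ± 978 (SD, n = 3 each), which gave a log2 fold change of -0.02 (95% interval -0.36 to 0.32, adjusted p = 0.999 by limma). The ratio of Grik4 to Grik5 within a library, per kilobase of exon and on the log2 scale, was -3.50 ± 0.251 in saline and -4.29 ± 0.365 in ketamine (SD, n = 3 each). The difference lay between -0.97 and -0.60 with single mice left out. The ratio was lower in each ketamine mouse than in each saline mouse, and does not depend on how the libraries were scaled. Since Grik5 differed little between the groups, the ratio restates the difference in Grik4 and is not a separate result.

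Grik1 encodes GluK1. It had 256, 279.9 and 256 normalized counts in saline mice 1, 6 and 10, compared to 493, 345 and 290.1 in ketamine mice 3, 5 and 9. Each ketamine mouse was above each saline mouse, a pattern found in 5.69% of all genes tested, but mouse 9 stood close to the highest saline mouse. The means were 264 ± 13.9 and 376 ± 105 (SD, n = 3 each), so that the ketamine mean was 1.43 times that of saline. The log2 fold change was 0.48 (standard error 0.215, 95% interval -0.03 to 0.98, unadjusted p = 0.0615, adjusted p = 0.889 by limma; exact permutation test, two-sided, p = 0.1). DESeq2 gave 0.52 (adjusted p = 0.725). Ketamine mouse 3 carried much of the difference, and without it the log2 fold change was 0.26. Without ketamine mice 3 and 5 together, which leaves mouse 9 alone, it was 0.14.
The summed counts of 8 markers of GABAergic neurons were also higher in each ketamine mouse, at 53861, 35139 and 46063 in mice 3, 5 and 9 against 28153, 25884 and 30353 in saline mice 1, 6 and 10. The log2 fold change was above 0 for all 8 (median 1.21), of which limma called 0 and DESeq2 4. Grik1 and this GABAergic sum were both highest in ketamine mouse 3, but the order of ketamine mice 5 and 9 was reversed between them. The sum of striatal markers had the order of Grik1 over the ketamine mice, but in mouse 9 it was below the saline mice. The part of either list in the values of Grik1 was not tested.

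Grik2 encodes GluK2, which forms the core of most kainate receptors in the forebrain. Its values in saline mice 1, 6 and 10 were close together, at 1445, 1429 and 1495 normalized counts. Ketamine mice 3 and 5 had 2565 and 2225, well above them, and ketamine mouse 9 had 1194, below them. The means were 1456 ± 34.1 and 1994 ± 714 (SD, n = 3 each), and the log2 fold change was 0.38 (standard error 0.275, 95% interval -0.26 to 1.03, adjusted p = 0.999 by limma; exact permutation test, two-sided, p = 0.4). Here the sign depended on the ketamine mice used. The log2 fold change was 0.71 when ketamine mouse 9 was left out (adjusted p = 0.131 by limma). When ketamine mice 3 and 5 were left out, with mouse 9 alone in its group, it was -0.29. Without saline mouse 10 and ketamine mouse 9, a choice made after seeing the data that removes the sole ketamine mouse below the saline mice, it was 0.73 and passed the threshold (adjusted p = 0.0225 by limma), the sole call among the 8 genes in that fit of 2 mice against 2, in which 3.96% of all genes were called. The sums of striatal markers had the same order over the ketamine mice, highest in mouse 3, then mouse 5, and below the saline mice in mouse 9. Their part in the values of Grik2 was not tested.

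Grik3, which encodes GluK3, varied most within the groups. Its normalized counts were 3272, 2679 and 1495 in saline mice 1, 6 and 10, compared to 3722, 4019.9 and 1641 in ketamine mice 3, 5 and 9. Ketamine mice 3 and 5 were above all saline mice, whereas ketamine mouse 9 and saline mouse 10 were both low. The means were 2482 ± 905 and 3127 ± 1296 (SD, n = 3 each), and the log2 fold change was 0.30 (standard error 0.412, 95% interval -0.67 to 1.27, adjusted p = 0.999 by limma). Without saline mouse 10 the log2 fold change was -0.03 and without ketamine mouse 9 it was 0.71. Saline mouse 10 had the highest sum of oligodendrocyte lineage markers and ketamine mouse 9 that of olfactory bulb markers, and their part in the low values of Grik3 was not tested.

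Grid1 had 2019, 1697 and 1508 normalized counts in saline mice 1, 6 and 10, compared to 2459, 2009 and 1183 in ketamine mice 3, 5 and 9. Mouse 3 was the highest of the 6 and mouse 9 the lowest, so that the saline values lay within the range of the ketamine values. The log2 fold change was 0.06 (95% interval -0.58 to 0.70, adjusted p = 0.999 by limma). Leaving out single mice moved it between -0.17 and 0.36.

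Neto1 had 2576, 2249.7 and 1956 normalized counts in saline mice 1, 6 and 10, compared to 2576, 2534 and 1083 in ketamine mice 3, 5 and 9. Ketamine mouse 9 stood far below the other 5 libraries, which overlapped. The means were 2260.4 ± 310.2 and 2065 ± 850.2 (SD, n = 3 each), which gave a log2 fold change of -0.23 (95% interval -1.02 to 0.56, adjusted p = 0.999 by limma). Without mouse 9 it was 0.19, and without ketamine mice 3 and 5, which leaves mouse 9 alone, it was -1.05.
Neto2 had 2396, 2115 and 1724 normalized counts in saline mice, against 2521, 2197 and 1888 in ketamine mice, where it was steadier than Neto1. The ranges overlapped, and the log2 fold change was 0.09 (95% interval -0.32 to 0.49, adjusted p = 0.999 by limma). The log2 ratio of Neto1 to Neto2 per kilobase lay between 0.56 and 0.74 in 5 libraries and was -0.27 in ketamine mouse 9, the one library with less Neto1 than Neto2 on this scale. The difference between the group means of this ratio was -0.31, and -0.0063 without that mouse.

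**Figure D3:**
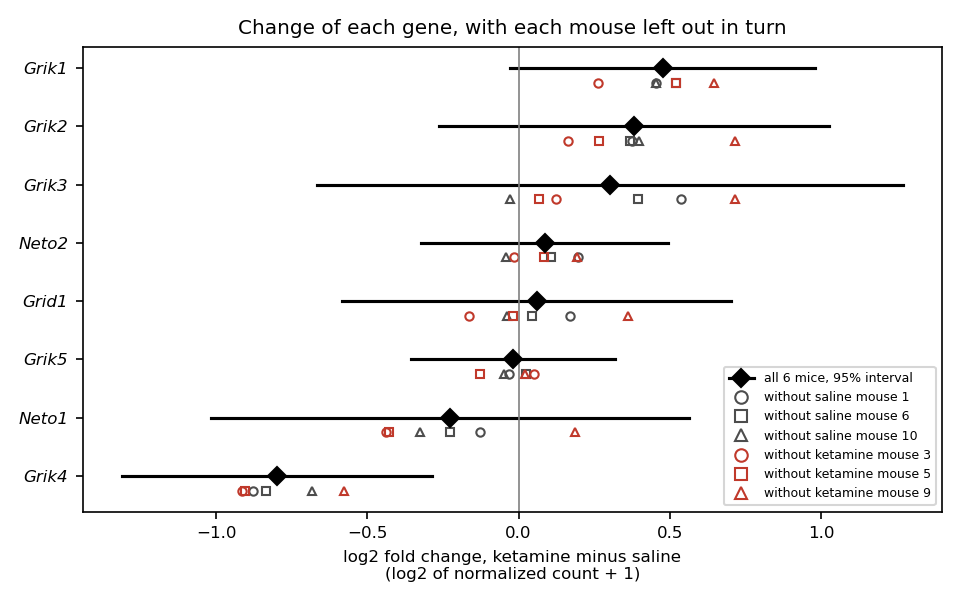
Log2 fold change of each gene (horizontal axis, ketamine minus saline) with all 6 mice and its 95% interval by limma (black), and after leaving out each single mouse (open symbols, grey for saline and red for ketamine mice). Grik4 at -0.80, Grik1 at 0.48 and Grik2 at 0.38 keep their sign in each case, whereas Grik3, Grik5, Grid1, Neto1 and Neto2 cross 0.

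Levels of different genes were compared as normalized counts per kilobase of exon. In saline mice Grik5 was by far the highest of the 8 genes, at 1867 ± 101 per kilobase, followed by Neto1 at 640.2 ± 87.8, Neto2 at 408 ± 66.2, Grid1 at 286 ± 42.4 and Grik3 at 276 ± 101 (SD, n = 3 each). Grik2 had 176 ± 4.13, Grik4 166 ± 24.2 and Grik1 79.2 ± 4.17 (SD, n = 3 each). Relative to all genes tested with a gene model, the saline mean was at percentile 83.1 for Neto1, 53.0 for Grik2 and 35.3 for Grik1. The ranges of neighbours in this order overlapped over the 3 saline mice for Grid1 and Grik3, for Grik3 and Grik2, and for Grik2 and Grik4. For the other 4 pairs of neighbours they did not. In ketamine mice Grik3 (348 ± 144) was above Grid1 (309 ± 106), and Grik1 (113 ± 31.5) above Grik4 (96.5 ± 23.4), both pairs with overlapping ranges. The place of Grik2 depends on the gene model, since with the length of its longest transcript in place of the union of its exons it had 303 per kilobase in saline and stood above Grid1 and Grik3.

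Among the 5 kainate genes, Grik5 made up 72.8% ± 2.03 of the summed level per kilobase in saline and 70.3% ± 7.67 in ketamine (SD, n = 3 each). These shares use the union of exons. With the longest transcript, the saline level per kilobase was 303 for Grik2 and 91.2 for Grik1, with Grik5 still at 1867. The share of Grik5 would then be lower and that of Grik2 higher. The share of Grik4 was 5.68%, 5.80% and 8.01% in saline mice 1, 6 and 10, compared to 4.17%, 3.56% and 3.13% in ketamine mice 3, 5 and 9, with no overlap. The share of Grik1 was 2.96%, 3.12% and 3.19% in the saline mice and 5.58%, 3.37% and 3.91% in the ketamine mice, again with no overlap. Grik4 had more counts per kilobase than Grik1 in each saline mouse and in ketamine mouse 5, and fewer in ketamine mice 3 and 9. The sum over the 5 genes overlapped between the groups, at 2564 ± 144 per kilobase in saline and 2652 ± 424 in ketamine (SD, n = 3 each).

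**Figure D4:**
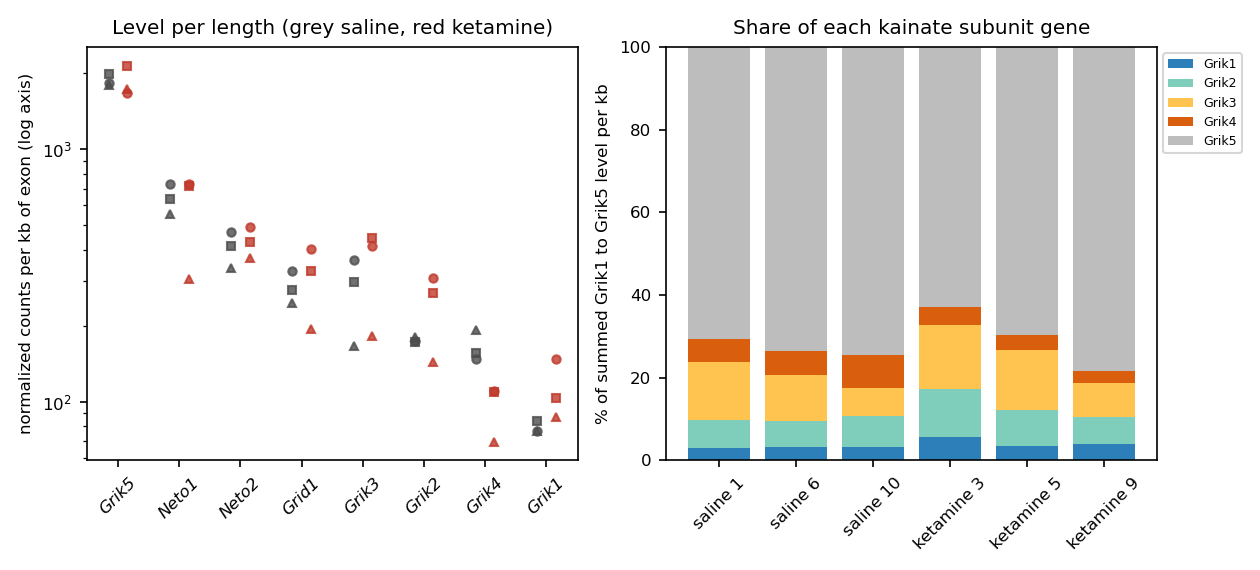
Left, normalized counts per kilobase of exon (log axis) of each gene in each saline (grey) and ketamine (red) mouse, in the order of the saline means, from 1867 for Grik5 to 79.2 for Grik1. Right, share of each kainate subunit gene in their summed level per kilobase in each library (percent), in which the Grik4 segment is 5.68% or more in saline mice and 4.17% or less in ketamine mice.

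The libraries took similar places for many of the 8 genes. Ketamine mouse 3 was the highest of the 6 for 5 genes, namely Grik1, Grik2, Grid1, Neto1 and Neto2. Ketamine mouse 9 was the lowest for Grik2, Grik4, Grid1 and Neto1, and among the lowest 2 for 7 of the 8. Saline mouse 10 was the lowest for Grik3 and Neto2 and the highest for Grik4. Across the 6 libraries, Pearson's r of log2 values was highest between Grid1 and Neto1 (0.907) and between Grik3 and Neto2 (0.906), and lowest between Grik1 and Grik4 (-0.376). These 6 points share the marker differences described above, and r is given as a description.

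For each gene, the 2 genes with the most similar pattern over the 6 libraries were found among all genes tested. For Grik2 they were Adamts3 (r = 0.999) and Ptpn13 (r = 0.995), both high in ketamine mice 3 and 5 and lowest in mouse 9. For Neto1 the first of them was Fzd3 (r = 0.998), which had 108 normalized counts in ketamine mouse 9 against 478 to 1143 in the others. For Grik4 they were Vav1 (r = 0.993) and LOC100862515 (r = 0.986), and for Grik1 the unnamed gene ENSMUSG00000093738 (r = 0.989) and S100pbp (r = 0.988). For Grik3 they were Phip (r = 0.994) and Sdc3 (r = 0.993), and for Grid1 Zfp81 (r = 0.997) and Hlcs (r = 0.996). Neto2 was most like Glce (r = 0.993) and Ppp2r2a (r = 0.992). Grik5 was most like Il18bp (r = 0.990) and 4933437F05Rik (r = 0.980). The unnamed gene listed for Grik1 was at 0 in every saline mouse. Under ketamine it ranged from 103 normalized counts (mouse 3) down to 6.59 (mouse 5) and 1.81 (mouse 9). Its r with Grik1 thus rests on very low counts outside mouse 3. With 6 libraries, high values of r are common. An r above 0.95 was found for 715 other genes with Neto1, 174 with Grid1, and 14 with Grik5.

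Proteins that bind, anchor or carry kainate receptors were represented by 18 genes, and 0 were called by limma, edgeR or DESeq2. At an unadjusted p under 0.05 by limma there was 1, Grip2. In this list 7 genes had a log2 fold change above 0 and 11 below 0 (median -0.10). The smallest p-values were those of Grip2, Snap25 and Grip1. Grip2, a PDZ scaffold protein, ranged from 669.9 to 743 normalized counts over the saline mice and from 870.2 to 959.9 over the ketamine mice (log2 fold change 0.34, adjusted p = 0.776 by limma). The related Grip1 ranged from 546 to 781 over the saline mice and from 835 to 877 over the ketamine mice (log2 fold change 0.34, adjusted p = 0.943 by limma). Snap25, a protein of synaptic vesicle fusion, ranged from 62728 to 88861 normalized counts over the saline mice and from 45831 to 61183 over the ketamine mice (log2 fold change -0.47, adjusted p = 0.896 by limma). The groups did not overlap for these 3 genes and for Ctnnb1, which was higher in ketamine and is named here after its values were seen. That is 3 genes higher and 1 lower of 18, beside 5.69% and 4.66% of all genes tested.

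The list of delta receptor partners held 9 genes, among them the cerebellins Cbln1 to Cbln4. None was called by limma (0 of 9), edgeR (0) or DESeq2 (0), and 0 had an unadjusted p under 0.05 by limma. In this list 5 genes had a log2 fold change above 0 and 4 below 0 (median 0.03). Cbln1 had the smallest p. It had 61.3, 54.1 and 47.2 normalized counts in saline mice 1, 6 and 10, compared to 151, 51.7 and 179 in ketamine mice 3, 5 and 9, so that mouse 5 lay among the saline mice (log2 fold change 1.04, standard error 0.458, adjusted p = 0.874 by limma). For these 9 genes the groups overlapped in each case.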

How the data were processed

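Sample titles gave the condition and number of each mouse, and columns were paired with samples by that number. The authors aligned 100-base paired-end reads to mm9 with TopHat2 2.0.11, counted them per gene with HTSeq and normalized them with DESeq2. What the authors deposited is thus a signal per gene, in which read counts are scaled by a library's size factor. The strand setting and annotation are not given in the sources used here. Whole reads were recovered for 100.0% of values in each library (tolerance 0.006 normalized counts), with totals between 26273436 and 32643726.

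Log2(normalized count + 1) was compared with limma 3.58.1 (trended prior variance) in R 4.3.3, over 16127 genes averaging 10 or more normalized counts. Testing was two-sided, p-values were adjusted by Benjamini-Hochberg over these genes, and the threshold was 0.05. The 95% intervals are unadjusted. The limma p-values set the difference between groups against the spread between libraries within a group, moderated by a trend over all genes tested. Alternatives were count tests of the recovered reads (edgeR 4.0.16, DESeq2 1.42.0), other scalings, filters and pseudocounts, and leaving out mice. The fits were tested on simulated data.

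Gene models and coding sequences came from GENCODE M1 (mm9), which held 37205 of the 37620 identifiers. Coding sequences were aligned with mafft 7.526. The members and gene lists were chosen with earlier results of these data known. Genes named were the 8 members, the 2 genes most like each, and the 3 genes of each partner list with the smallest p. Some genes that this rule names are not reported here. Other marker lists examined were those of PV, SST, VIP and CCK interneurons, of upper and deep layers, and of astrocytes, microglia and vessels. Their median log2 fold changes were -0.52 for PV interneurons, -0.06 for SST, VIP and CCK interneurons, -0.16 and 0.06 for upper and deep layers, 0.06 for astrocytes, -0.05 for microglia and -0.04 for vessels, and limma called 0 genes in each. DESeq2 called 3 of 7 PV markers, 1 of 10 SST, VIP and CCK markers and 0 in the other 5 of these lists, beside 1.13% of all genes. The median was 1.40 for striatal, 3.56 for olfactory bulb and 0.26 for oligodendrocyte lineage markers, of which limma called 0 and DESeq2 5 of 19, 6 of 10 and 0 of 10.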

Additional observations from a re-analysis of the deposited data

How the results depend on the processing

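Of 18 alternatives, 1 was chosen after seeing the data, leaving out saline mouse 10 and ketamine mouse 9 together. Grik1 and Grik4 kept their sign under each of the 18, and neither was called. With each mouse left out in turn, the log2 fold change ranged from 0.26 to 0.64 for Grik1, 0.16 to 0.71 for Grik2, -0.027 to 0.71 for Grik3, -0.91 to -0.58 for Grik4, -0.13 to 0.051 for Grik5, -0.17 to 0.36 for Grid1, -0.44 to 0.19 for Neto1 and -0.042 to 0.20 for Neto2. The number of genes called ranged from 0 to 1, with 0 of the 8 genes called. The log2 ratio of Grik1 to Grik2 differed between the groups by 0.10 and ranged from -0.068 to 0.26. Without ketamine mice 3 and 5, the sign turned for Grik2 (-0.29), Grik3 (-0.52), Grid1 (-0.55) and Neto2 (-0.13). The lone ketamine mouse is then assumed to vary like the saline mice. Without saline mouse 10 and ketamine mouse 9, limma called 636 genes, of which 1 was a member, Grik2 (0.73), and 1 a partner gene, Cbln2. Neto1 then turned to 0.086. Grik5, near 0 throughout, turned to 0.011 with upper-quartile scaling and 0.0048 with edgeR. DESeq2 called 182 genes. The cause of these shifts was not tested. Other scalings moved the median of all genes by at most 0.029. No paired analysis was possible because the groups share no mouse numbers.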

Other observations

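C1ql2, which encodes a secreted protein that binds kainate receptors at hippocampal mossy fibre synapses, was noticed after its values were seen. It had 861 normalized counts in saline mouse 10, 98.9 in ketamine mouse 3 and between 11.6 and 15.4 in the other 4 libraries. Its log2 fold change between the groups was -0.98 with a standard error of 1.65 (adjusted p = 0.999 by limma).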
